A study of Mus musculus with 9 samples.

Results

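The genes of ribosome biogenesis and of the RNA polymerase I (Pol I) machinery were followed in mouse embryonic stem cells that lack Sirt6. They were the 71 of 23366 rows of the deposited count table whose symbols name Pol I subunits and initiation factors, nucleolar proteins, core proteins of small nucleolar ribonucleoproteins (snoRNPs) and assembly factors of both ribosomal subunits. They were selected by symbol alone, with earlier results of these data known, and 70 of the 71 had enough counts to be tested. The comparison was between 3 Sirt6-KO libraries, from cells in which the gene for the histone deacetylase SIRT6 was knocked out, and 3 wild-type libraries. Both groups were total RNA of embryonic stem cells of the strain 129 SvJae F1 at passage 21, grown in medium with serum and the cytokine LIF, and the labels give no further treatment of either group. The labels do not say how the knockout was made, whether the line is a single clone, or whether replicates were separate cultures, so the spread behind each p-value may be technical only. Another 3 wild-type libraries from glucose-deprived cells, out of 9 in the series, were not analysed here.

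Ribosomes are made in the nucleolus, where Pol I transcribes the repeated rDNA genes into a long precursor that holds the 18S, 5.8S and 28S rRNAs. Initiation needs the DNA-binding protein UBF, the selectivity factor SL1, built from TBP and TAF1 proteins, and the polymerase-bound factor RRN3. The precursor is modified by snoRNPs, folded and cut within the small subunit processome and in large subunit particles, and exported with ribosomal proteins added on the way. Fast-dividing embryonic stem cells are known for prominent nucleoli and high rRNA synthesis.

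The targeted gene had 12, 6 and 6 counts in Sirt6-KO replicates 1, 2 and 3, against 348, 341 and 342 counts in the wild-type replicates, so the labels and the counts of Sirt6 go together. Total counts per library ran from 20107037 to 29267115 in Sirt6-KO cells and from 25044061 to 27785052 in wild-type cells. Levels are given as CPM, counts scaled to a common library size after TMM normalisation, in the order of replicates 1, 2 and 3, and they are not divided by gene length. Of 8 stem cell markers all were tested, with 3 higher and 3 lower, and their summed level was 6085 to 7771 CPM in Sirt6-KO cells and 5659 to 6283 CPM in wild-type cells. Of 8 endoderm markers 6 were tested and all 6 were lower, with sums of 31.2 to 49.9 CPM in Sirt6-KO cells and 222 to 252 CPM in wild-type cells, while Afp had 1 count in all and Foxa2, not tested, had 2, 4 and 1 counts in Sirt6-KO cells against 9, 9 and 10 in wild-type cells. Of 8 fibroblast markers 4 were tested and all 4 were higher, with sums of 10.27 to 11.01 CPM in Sirt6-KO cells and 1.89 to 2.46 CPM in wild-type cells; Lum was at 0 and Postn and Dcn were near 0. The count filter keeps a gene with enough counts in either group alone. Endoderm and fibroblast markers may thus have been tested only through the group where they were high, and such calls were in part set by the filter. In these bulk samples, fewer cells of a type and less RNA per cell cannot be told apart. The part of these marker differences in the results was not tested.

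Across the 70 tested genes, 15 were higher and 16 were lower in Sirt6-KO cells at an adjusted p under 0.05, and 39 were not called (edgeR's quasi-likelihood test, Benjamini-Hochberg adjustment over all 14988 genes tested). That is 44.3% of the tested members called, beside 55.7 percent of all tested genes, 27.9 percent higher and 27.8 percent lower. With total counts in place of TMM, 20 members were higher and 10 lower, and the median log2 fold change of all genes was 0.13. Members called higher were 8 without Sirt6-KO replicate 2 and 7, 7 and 8 without wild-type replicate 1, 2 and 3. The median log2 fold change of the members was -0.0031, beside 0.011 over all genes. Changes were small: 54 of the 70 were under 0.5 in size on the log2 scale (77.1%, beside 54.5% of all genes). Ncl, Nol3 and Nol4 alone were called and moved by 1 or more on the log2 scale, 4.29% of members beside 21.6 percent of all genes. Among them, Nol4 passed the count filter only through its Sirt6-KO libraries. The libraries of both groups did not overlap in CPM for 40 members, 57.1% beside 63.2 percent of all genes, and all 31 called members were among these 40.

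**Figure D1:**
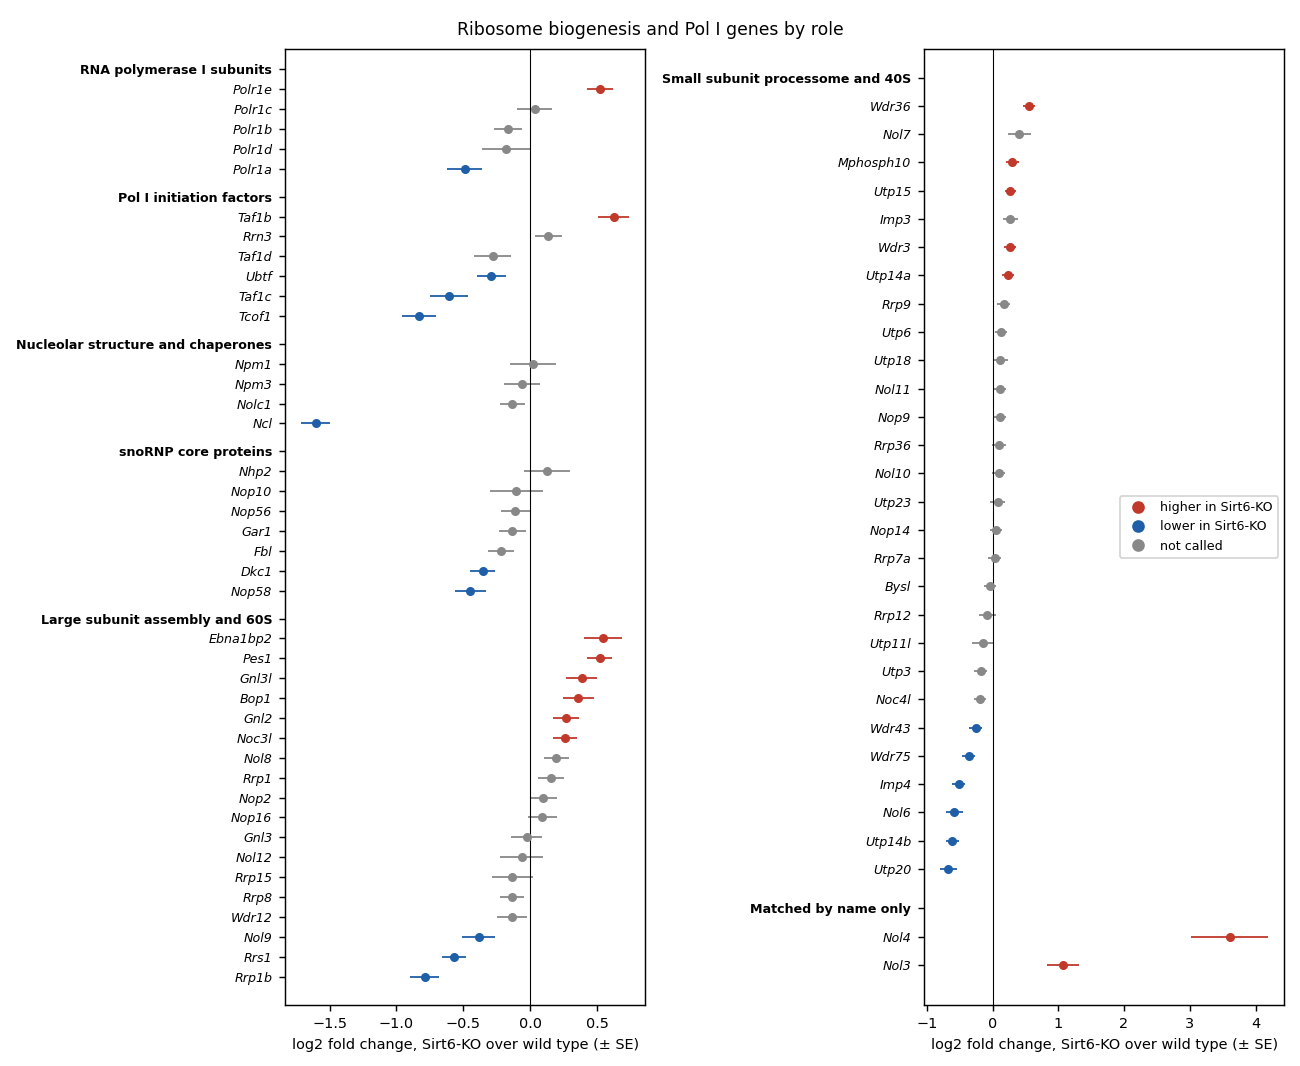
Log2 fold change (x axis, Sirt6-KO over wild type) of the 70 tested genes, grouped by role, with bars for the SE of the fit; red and blue mark genes higher and lower at an adjusted p under 0.05, and the 2 panels have different x scales. Ncl at -1.60 stands apart on the left, and every role with 5 or more tested genes, other than the snoRNP core, holds both red and blue points.

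The largest fall was in Ncl, which encodes nucleolin, a major RNA-binding protein of the nucleolus that acts in rDNA transcription and early rRNA processing. Ncl had 349.9, 364 and 369.7 CPM in the Sirt6-KO libraries, against 1158.5, 1107 and 1031 CPM in the wild-type libraries. The knockout libraries lay close together, and every one was below every wild-type library by a wide gap. Ncl was 3.04-fold lower (log2 fold change -1.60, SE 0.11, adjusted p = 7.26e-07). The other 3 genes of the nucleolar structure group were not called. Npm1, encoding the nucleolar chaperone nucleophosmin, had 2599, 3747.5 and 4139 CPM in the Sirt6-KO libraries, against 3327, 3239.7 and 3764 CPM in the wild-type libraries. Its groups overlapped, and Sirt6-KO replicate 1 was the lowest and replicate 3 the highest of the 6 libraries (log2 fold change 0.02, SE 0.17, adjusted p = 0.925); Npm1 also has many processed pseudogenes, which reads may share. The chaperone gene Npm3 (log2 fold change -0.06, adjusted p = 0.723) overlapped between groups, and Nolc1, a shuttling protein that chaperones snoRNPs (log2 fold change -0.13, adjusted p = 0.239), did not overlap but missed the threshold.

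Because Ncl had the largest fall, the 250 bases before its RefSeq start are shown (GRCm38.p6, chr1:86359456-86359705, minus strand, 5′ to 3′); capitals mark CCCGCC, the reverse complement of the GC box GGGCGG, which occurs 4 times there, and CACGTG does not occur.
Ncl: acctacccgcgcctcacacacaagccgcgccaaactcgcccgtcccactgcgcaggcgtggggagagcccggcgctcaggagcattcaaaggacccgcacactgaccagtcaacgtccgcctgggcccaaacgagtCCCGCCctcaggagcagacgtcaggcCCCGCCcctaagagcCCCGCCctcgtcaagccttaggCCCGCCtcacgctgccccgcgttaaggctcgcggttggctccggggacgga

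Among the 5 Pol I subunits that the symbols name, 1 was lower and 1 was higher. Polr1a, the largest catalytic subunit, had 227, 184 and 157 CPM in the Sirt6-KO libraries, against 276, 259.9 and 262 CPM in the wild-type libraries. All 3 knockout libraries were below all wild-type libraries, though they were spread over a wider range. The log2 fold change of Polr1a was -0.49 (SE 0.13, adjusted p = 0.00783), and with total counts in place of TMM it was -0.36 with an adjusted p of 0.0571. Polr1e, a subunit of the heterodimer that helps the enzyme initiate and elongate, had 55.1, 62.9 and 66.3 CPM in the Sirt6-KO libraries, against 42.5, 42.6 and 43.1 CPM in the wild-type libraries. Here all knockout libraries were above all wild-type libraries, and Polr1e was 1.44-fold higher (log2 fold change 0.52, SE 0.10, adjusted p = 0.00104). The other 3 subunits overlapped between groups. Polr1b, the other large catalytic subunit, had a log2 fold change of -0.17 (adjusted p = 0.204); without Sirt6-KO replicate 1 it was -0.26 with an adjusted p of 0.00933, and without replicate 3 it was -0.12 (0.262). For Polr1c and Polr1d, a pair shared with Pol III, the log2 fold changes were 0.03 (adjusted p = 0.844) and -0.18 (adjusted p = 0.404); both signs turned with the library left out. Without Sirt6-KO replicate 3, Polr1c was -0.13 (adjusted p = 0.290) and Polr1d was -0.41 (0.0414), and without replicate 1 they were 0.15 (0.194) and 0.025 (0.839).

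Of the initiation factors, 3 of 6 tested genes were lower, 1 was higher and 2 were not called. Tcof1 encodes treacle, which binds UBF and Pol I and is mutated in Treacher Collins syndrome. Tcof1 had 159.6, 126 and 114 CPM in the Sirt6-KO libraries, against 248, 234.1 and 229 CPM in the wild-type libraries. The groups were far apart, and Tcof1 was 1.78-fold lower (log2 fold change -0.83, SE 0.13, adjusted p = 0.000228). The genes of the SL1 subunits moved in both directions. Taf1c had 30.4, 20.8 and 21.6 CPM in the Sirt6-KO libraries, against 37.6, 38.5 and 35.1 CPM in the wild-type libraries. Its knockout libraries were all lower (log2 fold change -0.61, SE 0.14, adjusted p = 0.00399), with replicate 1 nearest to wild type. Taf1b had 40, 48.5 and 52.9 CPM in the Sirt6-KO libraries, against 29.1, 31 and 31.5 CPM in the wild-type libraries. Its knockout libraries were all higher (log2 fold change 0.62, SE 0.12, adjusted p = 0.000934). Taf1d overlapped between groups (log2 fold change -0.28, adjusted p = 0.104) and was -0.41 with an adjusted p of 0.0240 without Sirt6-KO replicate 3 and -0.13 (0.215) without replicate 1. Taf1a had 0 counts in all 6 libraries and was not tested. The annotation used for counting is not given in the sources here, so this does not show that Taf1a was silent. For genes that were counted, a floor of 3 counts per library corresponds to 0.0944 to 0.15 CPM.

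Ubtf, which encodes UBF, had 280.4, 232 and 229 CPM in the Sirt6-KO libraries, against 301, 293 and 313 CPM in the wild-type libraries. The knockout libraries were lower without overlap, but by little (log2 fold change -0.29, SE 0.11, adjusted p = 0.0388). This call was lost without Sirt6-KO replicate 2 (adjusted p = 0.146), without wild-type replicate 1, 2 or 3 (0.116, 0.0856 and 0.124), with total counts (0.282), with genes under a mean of 1 CPM left out (0.0520) and with the length and GC trend removed (0.0654). Rrn3, which recruits Pol I to the promoter and responds to growth signals, had 464, 410.4 and 391 CPM in the Sirt6-KO libraries, against 387, 377 and 387 CPM in the wild-type libraries. The knockout libraries lay just above the wild-type ones, and the gene was not called (log2 fold change 0.14, adjusted p = 0.284).

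**Figure D2:**
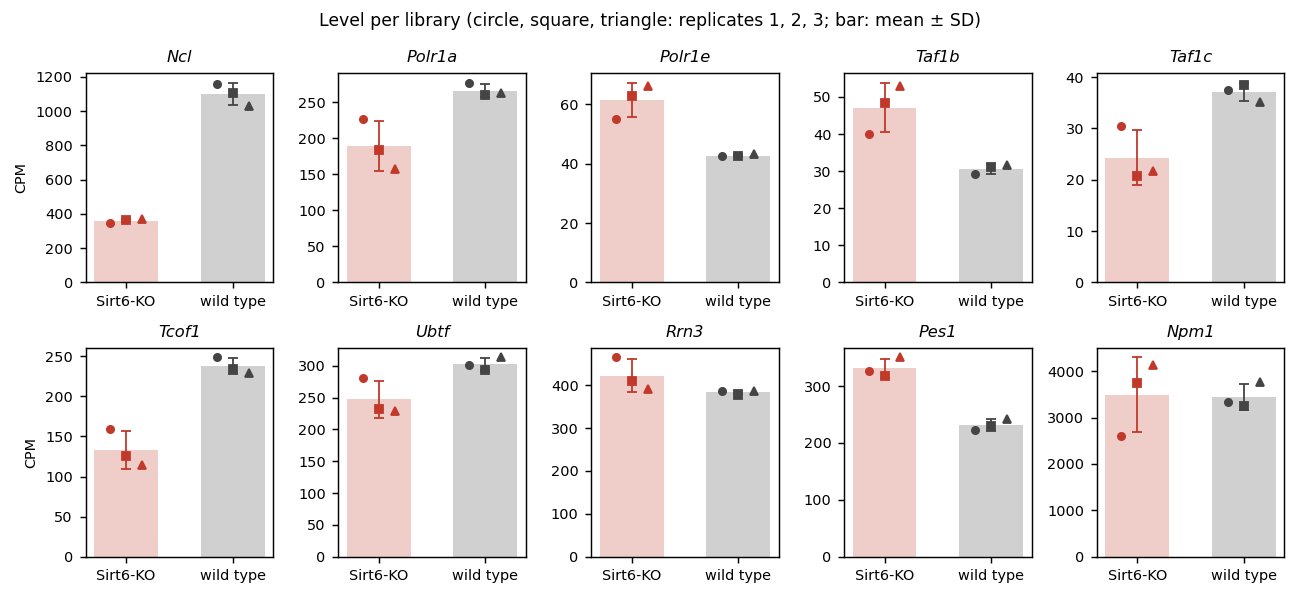
Level in CPM (y axis, from 0) in each library of 10 genes, Sirt6-KO left and wild type right; circle, square and triangle are replicates 1, 2 and 3, and bars are means with SD (n = 3 each). Ncl, Polr1a, Taf1c, Tcof1 and Ubtf were lower without overlap, Polr1e, Taf1b and Pes1 were higher without overlap, Rrn3 was not called, and Npm1 overlapped.

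Of the 7 snoRNP core genes, 2 were lower, 0 were higher and 5 were not called. Box C/D snoRNPs, which guide methylation of rRNA, share a core of fibrillarin (Fbl), NOP56 and NOP58. Nop58 had 329, 397 and 402 CPM in the Sirt6-KO libraries, against 511, 476 and 555 CPM in the wild-type libraries, and every knockout library was below every wild-type library (log2 fold change -0.45, SE 0.12, adjusted p = 0.00671). Nop56 overlapped between groups (log2 fold change -0.11, adjusted p = 0.395). Fbl, the methyltransferase, had 91.8, 96 and 110.1 CPM in the Sirt6-KO libraries, against 115, 115 and 116 CPM in the wild-type libraries. The Fbl groups did not overlap, yet the gene was not called (log2 fold change -0.22, SE 0.10, adjusted p = 0.0798); without Sirt6-KO replicate 3 its log2 fold change was -0.32 with an adjusted p of 0.00748, and without replicate 1 it was -0.16 (0.109).

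Box H/ACA snoRNPs convert uridine to pseudouridine and share dyskerin (Dkc1) with NHP2, NOP10 and GAR1. Dkc1, the pseudouridine synthase, had 216, 232 and 219 CPM in the Sirt6-KO libraries, against 289, 271 and 296 CPM in the wild-type libraries. Its groups did not overlap (log2 fold change -0.36, SE 0.09, adjusted p = 0.00739), although the adjusted p was 0.0790 with total counts. The partners were not called, with log2 fold changes of -0.13 (adjusted p = 0.275) for Gar1, -0.11 (adjusted p = 0.672) for Nop10 and 0.13 (adjusted p = 0.556) for Nhp2. Nop10 and Nhp2, with the shortest coding sequences of the core genes, varied widely within the knockout group. Nop10 had 75.4, 117 and 152 CPM in Sirt6-KO cells, against 116, 123 and 131 CPM in wild-type cells. Nhp2 had 179, 246 and 315 CPM in Sirt6-KO cells, against 211, 230.4 and 238 CPM in wild-type cells. In both genes, Sirt6-KO replicate 1 was the lowest and replicate 3 the highest of the 6 libraries, and the sign turned with the library left out. Nhp2 was 0.32 (adjusted p = 0.0150) without Sirt6-KO replicate 1 and -0.11 (0.528) without replicate 3, and Nop10 was 0.13 (0.286) and -0.38 (0.0741).

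In the small subunit group, 6 of 28 tested genes were lower, 5 were higher and 17 were not called, with a median log2 fold change of 0.084. Utp20, a very large scaffold protein of the processome, had 255, 225 and 187 CPM in the Sirt6-KO libraries, against 376, 355 and 331 CPM in the wild-type libraries. The groups were well apart (log2 fold change -0.67, SE 0.12, adjusted p = 0.000836). Utp14b, in mouse a retrogene copy of the X-linked Utp14a with which it may share reads, had 36.4, 34.1 and 30.9 CPM in the Sirt6-KO libraries, against 56, 50.6 and 48.3 CPM in the wild-type libraries. It was lower without overlap (log2 fold change -0.61, SE 0.10, adjusted p = 0.000520), whereas Utp14a, named here for that reason after its values were seen, was higher (log2 fold change 0.24, SE 0.09, adjusted p = 0.0481); that call was lost without any 1 library other than Sirt6-KO replicate 1 (adjusted p up to 0.210) and with no filter on low counts. Nol6, a processome component, fell with 136, 105 and 102 CPM in Sirt6-KO cells, against 177, 179.8 and 157 CPM in wild-type cells (log2 fold change -0.58, SE 0.12, adjusted p = 0.00233). Imp4, a member of the MPP10 complex that joins the U3 snoRNA to the precursor, fell with 74.3, 79 and 89.7 CPM in Sirt6-KO cells, against 109, 120.3 and 119 CPM in wild-type cells (log2 fold change -0.52, SE 0.10, adjusted p = 0.00135). Both had knockout libraries that all lay below the wild-type ones.

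Some complexes of the processome held calls in both directions. The tUTP (UTP-A) complex, which links the processome to transcription of the rDNA, had Wdr75 and Wdr43 lower with Utp15 higher. Other genes of that complex, named after their values were seen, were Cirh1a, Nol11 and Heatr1. Cirh1a was lower (log2 fold change -0.30, adjusted p = 0.0172). Nol11 (0.11, adjusted p = 0.294) and Heatr1 (-0.12, adjusted p = 0.428) were not called. Wdr75 had 232, 250.4 and 260.4 CPM in Sirt6-KO cells, against 313, 312 and 333 CPM in wild-type cells (log2 fold change -0.37, SE 0.10, adjusted p = 0.00739). Wdr43 had 267, 296 and 296 CPM in Sirt6-KO cells, against 343, 327 and 355 CPM in wild-type cells (log2 fold change -0.25, SE 0.10, adjusted p = 0.0440). Utp15 went the other way, with 133, 129 and 124 CPM in Sirt6-KO cells, against 108, 104 and 108.5 CPM in wild-type cells (log2 fold change 0.27, SE 0.09, adjusted p = 0.0216). In the UTP-B complex, Wdr36 had 289, 286 and 279 CPM in Sirt6-KO cells, against 191, 189 and 203 CPM in wild-type cells. Its knockout libraries stood apart from the wild-type ones (log2 fold change 0.55, SE 0.09, adjusted p = 0.000415). Wdr3, of the same complex, was higher by less (log2 fold change 0.27, SE 0.09, adjusted p = 0.0260). Mphosph10, the scaffold of the complex that holds Imp4, was higher (log2 fold change 0.30, SE 0.10, adjusted p = 0.0291), opposite in sign to Imp4. The calls of Wdr43, Utp15 and Wdr3 were lost without Sirt6-KO replicate 2 (adjusted p = 0.0809, 0.0608 and 0.0554) and without wild-type replicate 1, 2 or 3 (0.0654 to 0.156), and that of Mphosph10 without Sirt6-KO replicate 2 or 3 or wild-type replicate 1 or 2 (0.0550 to 0.182). With total counts, the calls of Wdr75 (0.0585) and Wdr43 (0.294) were lost; that of Wdr43 was also lost with no filter (0.0572), with genes under a mean of 1 CPM left out (0.0625) and with Rn45s, Rmrp and Rpph1 left out of library sizes (0.0553).

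In the large subunit group, 6 of 18 tested genes were higher, 3 were lower and 9 were not called, with a median log2 fold change of 0.094. Ebna1bp2, an early large subunit assembly factor, had 171, 219.7 and 253 CPM in the Sirt6-KO libraries, against 142, 136 and 163 CPM in the wild-type libraries. Its groups did not overlap (log2 fold change 0.54, SE 0.14, adjusted p = 0.00725). Pes1 and Bop1 encode pescadillo and its partner in the PeBoW complex, which acts in 28S and 5.8S rRNA maturation, and WDR12 completes that complex. Pes1 had 327, 318 and 350.1 CPM in the Sirt6-KO libraries, against 223, 229 and 242 CPM in the wild-type libraries (log2 fold change 0.52, SE 0.10, adjusted p = 0.000835). Bop1 had 233, 173 and 191 CPM in Sirt6-KO cells, against 152, 159.6 and 153 CPM in wild-type cells. Bop1 was higher without overlap (log2 fold change 0.36, SE 0.12, adjusted p = 0.0225), but its adjusted p was 0.0755, 0.0647 and 0.0792 without wild-type replicate 1, 2 and 3. Wdr12 overlapped between groups and had the opposite sign (log2 fold change -0.14, adjusted p = 0.321), chosen here after its values were seen as the remaining member of the complex. Gnl3l, a nucleolar GTPase related to nucleostemin, was higher with 335, 284 and 247 CPM in Sirt6-KO cells, against 221, 219 and 224 CPM in wild-type cells (log2 fold change 0.38, SE 0.12, adjusted p = 0.0174); this call was lost without Sirt6-KO replicate 2 or without wild-type replicate 1, 2 or 3 (0.05002 to 0.0720). The remaining rises, named after their values were seen, were in Gnl2 (log2 fold change 0.27, SE 0.10, adjusted p = 0.0333), another nucleolar GTPase, and Noc3l (log2 fold change 0.26, SE 0.09, adjusted p = 0.0279). Both calls were lost without Sirt6-KO replicate 2 and without any 1 wild-type library (adjusted p up to 0.163 and 0.143), and with no filter on low counts, that of Gnl2 also without Sirt6-KO replicate 3.

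The 3 falls of the large subunit group were in Rrp1b, Rrs1 and Nol9. Rrp1b, an RRP1 family protein of the nucleolus, had 132, 110 and 106 CPM in the Sirt6-KO libraries, against 209, 199 and 195 CPM in the wild-type libraries. It was 1.73-fold lower with no overlap (log2 fold change -0.79, SE 0.11, adjusted p = 0.000107). Rrs1, which in yeast brings the 5S particle into the pre-60S subunit with Rpf2, had 66.8, 61.4 and 64.5 CPM in the Sirt6-KO libraries, against 97.7, 91 and 97.5 CPM in the wild-type libraries. Its libraries varied little within each group and were clearly separated (log2 fold change -0.57, SE 0.09, adjusted p = 0.000314). Nol9, a polynucleotide kinase that acts in processing of the second internal transcribed spacer, had 143, 124 and 102 CPM in Sirt6-KO cells, against 165, 163 and 156 CPM in wild-type cells (log2 fold change -0.39, SE 0.12, adjusted p = 0.0192). For Nol9 the adjusted p was 0.0632 without Sirt6-KO replicate 2, 0.0745 and 0.0610 without wild-type replicate 1 and 2, and 0.146 with total counts.

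A pair of genes is in the set by symbol rather than by a settled role in ribosome biogenesis. Nol3 encodes an inhibitor of apoptosis with a caspase recruitment domain. It had 52, 39 and 42 counts in Sirt6-KO cells, against 18, 24 and 22 counts in wild-type cells, with all knockout libraries above the wild-type ones (log2 fold change 1.07, SE 0.24, adjusted p = 0.00318). Nol4, known mainly from brain and testis, had 17, 20 and 15 counts in Sirt6-KO cells, against 3, 1 and 0 counts in wild-type cells (log2 fold change 3.60, SE 0.59, adjusted p = 0.000370), and at such counts the fitted size depends on the prior count. Nol4 passed the count filter only through its Sirt6-KO libraries, where it was high, so its call as higher was in part set by the filter. Without Nol3 and Nol4, 13 members were higher and 16 were lower of 68 tested.

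The summed level of the members was 12507, 13724 and 14466 CPM in Sirt6-KO cells, against 14583, 14256 and 15232 CPM in wild-type cells. The lowest wild-type sum lay within the knockout range, so the groups overlapped. Without Npm1 and Ncl, which hold much of that sum, it was 9558, 9613 and 9958 CPM in Sirt6-KO cells, against 10098, 9909 and 10436 CPM in wild-type cells, and the groups still overlapped. Of 81 genes for cytosolic ribosomal proteins, 80 were tested, with 6 higher, 0 lower and a median log2 fold change of 0.23. That is 7.5% called, beside 55.7 percent of all tested genes. The summed level of the 81 ribosomal protein genes was 64980, 93857 and 118360 CPM in Sirt6-KO cells, against 70355, 77014 and 81756 CPM in wild-type cells, so the knockout libraries spanned the wild-type range.

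Within each group, libraries differed along the length of the coding sequence. For 28 of the 70 members Sirt6-KO replicate 1 was the lowest and replicate 3 the highest knockout library, and for 17 the order was reversed. Of 20 members with a coding sequence under 1000 bases, 18 were higher in Sirt6-KO replicate 3 than in replicate 1, with a median difference of 0.55 on the log2 scale. Of 27 members over 2000 bases, 8 were higher in replicate 3, with a median difference of -0.22. Among these long genes, 7 were called higher and 12 lower, and under 1000 bases, 2 were higher and 1 lower. Calls by length were not counted over all genes, so these counts cannot be read as particular to the members. Across members, the log2 fold change between groups had a Spearman correlation of -0.131 with coding length (70 genes that share the same libraries, a description only), beside -0.117 across 13956 genes. With the length and GC trend removed from each library, an alternative added after the data were seen, 21 members were higher and 21 lower; 30 of the 31 calls were kept and Ubtf was lost. Falls of several long genes became smaller by 1.5 times or more on the log2 scale: Tcof1 was then -0.54, Utp20 -0.45, Taf1c -0.39, Nol6 -0.32, Polr1a -0.28 and Ubtf -0.15. Of the 12 members added, the 6 falls were in Taf1d (-0.42), Utp11l (-0.28), Wdr12 (-0.27), Polr1d (-0.23), Fbl (-0.22) and Nop10 (-0.17). The 6 rises were in Nop2 and Imp3 (both 0.25), Rrp9 (0.24), Rrp1 (0.21), Nop9 (0.20) and Nol8 (0.20), several of them named after their values were seen.

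**Figure D3:**
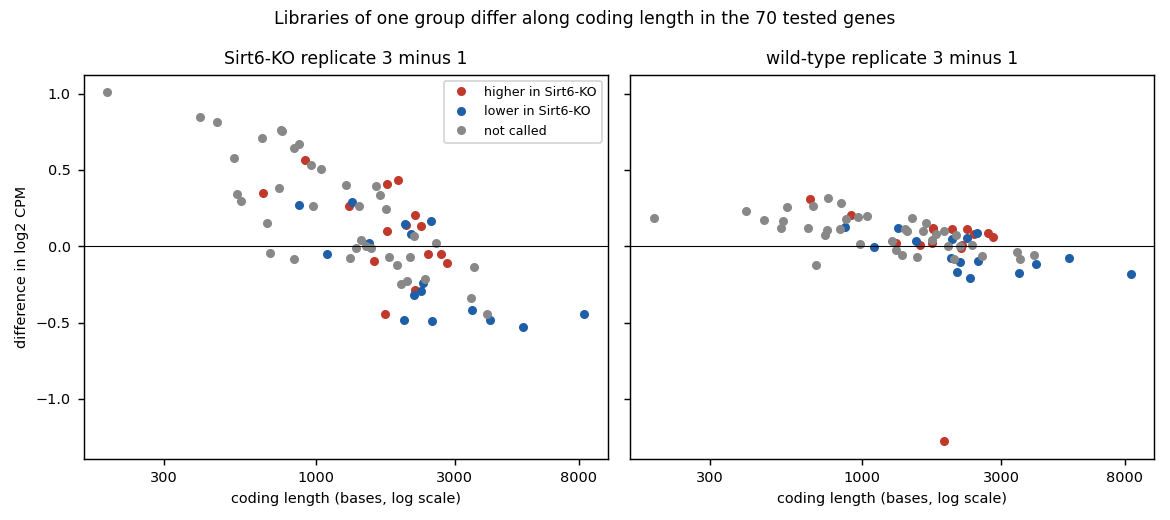
Difference in log2 CPM between replicate 3 and replicate 1 of Sirt6-KO (left) and of wild type (right) against coding length (x axis, bases, log scale) for the 70 tested genes, coloured by their call between groups. In the Sirt6-KO panel 18 of 20 genes under 1000 bases lie above 0, against 8 of 27 over 2000 bases, and the lone low point in the wild-type panel is Nol4, with 0 and 3 counts in those libraries.

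The steps around the members were read from 12 companion lists, which held 167 tested genes outside the rule, with 22 higher, 49 lower and a median log2 fold change of -0.049. With total counts 41 were higher and 30 lower, and with the length and GC trend removed 41 were higher and 65 lower. Without Sirt6-KO replicate 1, 48 were higher and 56 lower, and without wild-type replicate 2, 12 were higher and 37 lower. Of all genes tested in the main fit, 27.9 percent were higher and 27.8 percent lower. In that fit, called genes made up 21.4% (RNA exosome) to 81.8% (MYC family) of a list, beside 55.7 percent of all tested genes. Only the MYC family lay above that share. The row Rn45s, annotated as the 45S precursor, took 3.30 to 4.91 percent of counts in Sirt6-KO cells and 7.54 to 9.23 percent in wild-type cells. Rn45s was 2.37-fold lower (log2 fold change -1.24, SE 0.21, adjusted p = 0.000448). The libraries were of total RNA, with the removal of rRNA not given in the sources used here. The precursor holds the sequences of the mature rRNAs, so counts of precursor and of mature rRNA cannot be told apart in this row. Rmrp and Rpph1, the RNA parts of the RNases MRP and P, had Sirt6-KO replicate 3 far above the other libraries and were not called (log2 fold changes 0.59 and 0.61, adjusted p = 0.0634 and 0.0718). Of 13 regulators of rDNA chromatin, which include the member Rrp8, 7 were lower and 0 higher. Lower on the log2 scale was Baz2a at -1.05 (adjusted p = 0.000135), which encodes the TIP5 subunit of the nucleolar remodelling complex. Myo1c at -0.95 (adjusted p = 8.19e-05) and Kdm2b at -0.80 (adjusted p = 0.000218) were lower too. With total counts 1 of the 13 was higher, and 1 after removal of the length and GC trend. Coding sequences of the 7 lower genes ran from 2385 bases (Phf8) to 5745 bases (Chd4). Ttf1 (2577 bases) and Ddx21 (2553 bases) lay in that range and were not called. The part of coding length in these falls was not tested.

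Of the 11 genes of the MYC family and its partners, which as a family regulate many ribosome biogenesis genes, 4 were higher and 5 lower. Myc had 12.1, 9.95 and 10.8 CPM in Sirt6-KO cells, against 40.8, 38.9 and 36.4 CPM in wild-type cells. Mycn had 171, 153 and 152 CPM in Sirt6-KO cells, against 86.7, 88.2 and 86.1 CPM in wild-type cells. Every Myc value was lower in knockout cells (log2 fold change -1.81, SE 0.11, adjusted p = 4.68e-07), and every Mycn value was higher (log2 fold change 0.87, SE 0.09, adjusted p = 1.98e-05). Mycl1 and Mxd4 were higher too, at 2.28 (adjusted p = 4.23e-07) and 1.79 (adjusted p = 7.71e-06), while Mnt at -0.66 (adjusted p = 0.000873) and Mga at -0.52 (adjusted p = 0.00533) were lower.

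Of 8 Pol I subunit genes outside the rule, most of them shared with other polymerases, 2 were higher and 1 lower. That gene was Znrd1, a small Pol I subunit, with 28.1, 40.2 and 50.2 CPM in Sirt6-KO cells, against 62.2, 65.2 and 61 CPM in wild-type cells (log2 fold change -0.67, SE 0.17, adjusted p = 0.00630); Polr2e at 0.35 (adjusted p = 0.0468) and Polr2h at 0.47 (adjusted p = 0.0338) were higher, calls lost without any 1 library other than Sirt6-KO replicate 1 (adjusted p = 0.0678 to 0.169). Of 11 Pol III subunits, 2 were higher and 2 lower. The alternative subunits moved in opposite directions, with Polr3gl lower at -1.15 (adjusted p = 1.38e-05) and Polr3g, known from undifferentiated cells, higher at 0.40 (adjusted p = 0.00434); Polr3b and Polr3e were called at 0.29 (adjusted p = 0.0371) and -0.24 (adjusted p = 0.0413), calls lost without Sirt6-KO replicate 2 or without any 1 wild-type library (0.0746 to 0.159).

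Small subunit genes outside the rule were higher in 2 and lower in 7 of 25; with total counts they were higher in 4 and lower in 2, and the number lower was 4, 3 and 2 without Sirt6-KO replicate 2 and wild-type replicates 1 and 3. Dhx37, the helicase that releases U3, had 31.7, 22.3 and 24 CPM in Sirt6-KO cells, against 53.5, 52.4 and 45.6 CPM in wild-type cells (log2 fold change -0.95, SE 0.14, adjusted p = 0.000159), and the UTP-B protein Tbl3 had 232, 184 and 193 CPM in Sirt6-KO cells, against 125, 137 and 133 CPM in wild-type cells (log2 fold change 0.63, SE 0.11, adjusted p = 0.000579). Other genes of UTP-B were not called, with Utp6 at 0.13 (adjusted p = 0.251), Utp18 at 0.12 (adjusted p = 0.396) and Pwp2 at 0.08 (adjusted p = 0.556), named after their values were seen. Ddx10 was higher at 0.24 (adjusted p = 0.0404), and Diexf at -0.33 (adjusted p = 0.00989) and Ddx47 at -0.36 (adjusted p = 0.0127) were lower. These 3 calls were lost under some settings: Ddx10 without Sirt6-KO replicate 2 or any 1 wild-type library (0.0871 to 0.219), Diexf without wild-type replicate 1 (0.0506) or with total counts (0.135), and Ddx47 without Sirt6-KO replicate 2 (0.0566), wild-type replicate 3 (0.0664) or with total counts (0.0745). Of 12 genes of later 40S maturation, 2 were higher and 1 lower: Mettl5, an 18S rRNA methyltransferase, at 0.67 (adjusted p = 0.00399), Ltv1 at 0.63 (adjusted p = 0.00141), and Nob1, the nuclease that makes the 18S end, at -0.57 (adjusted p = 0.000256). Of 43 large subunit genes outside the rule, 6 were higher and 17 lower; with total counts 10 were higher and 9 lower, and 9 to 11 were lower without Sirt6-KO replicate 2 or any 1 wild-type library. Wdr74, a factor of the pre-60S particle, had 46.2, 54.8 and 70 CPM in Sirt6-KO cells, against 124, 137 and 141 CPM in wild-type cells (log2 fold change -1.24, SE 0.14, adjusted p = 3.29e-05). Pelp1 at -0.97 (adjusted p = 2.93e-05) and the helicase Ddx51 at -0.91 (adjusted p = 0.000150) were lower, and Ftsj3 at 0.41 (adjusted p = 0.00685), Rbm28 at 0.32 (adjusted p = 0.0112) and Rpf2 at 0.57 (adjusted p = 0.0162) were higher. Without wild-type replicate 2 the adjusted p of Ftsj3 was 0.0599 and that of Rbm28 was 0.0938, and without Sirt6-KO replicate 2 or 3 that of Rpf2 was 0.0765 or 0.0680. Rpf2 and Rrs1, partners in yeast, thus had opposite signs.

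Of 14 genes of the RNA exosome, which trims rRNA ends from the 3′ side, 3 were lower and 0 higher; 6 were lower without Sirt6-KO replicate 3, 2 were higher without Sirt6-KO replicate 1, and 7 were lower and 1 higher with the length and GC trend removed. The 3 falls were in the catalytic subunits Dis3 and Exosc10 and in Exosc6. Dis3 had 138, 136 and 129 CPM in Sirt6-KO cells, against 335, 329 and 345 CPM in wild-type cells (log2 fold change -1.32, SE 0.09, adjusted p = 1.02e-06). Exosc10 was lower at -0.65 (adjusted p = 9.32e-05), and Exosc6 at -0.31 (adjusted p = 0.0349) lost its call without Sirt6-KO replicate 2 (adjusted p = 0.124) or wild-type replicate 2 or 3 (0.0752 and 0.171). Of 9 genes of snoRNP assembly, 1 was lower and 1 higher, both acting on the H/ACA particle: Naf1 at -0.94 (adjusted p = 3.98e-05) and Shq1 at 0.36 (adjusted p = 0.00607). Of 11 protein subunits of nucleolar ribonucleases, 2 were higher and 1 lower, with Rpp40 at 1.03 (adjusted p = 0.000117) and Rpp25 at -0.74 (adjusted p = 0.000130), both proteins of RNases P and MRP, and the exonuclease Xrn2 at 0.33 (adjusted p = 0.0109); the call of Xrn2 was lost without Sirt6-KO replicate 2 (0.0512) or wild-type replicate 2 (0.0841). Of 8 genes of the 5S particle and the p53 checkpoint that senses failed assembly, 3 were lower and 1 higher, with Trp53 at -0.49 (adjusted p = 0.000987) and the p53 target Cdkn1a at 0.49 (adjusted p = 0.00446). Grwd1 at -0.38 (adjusted p = 0.00534) and Heatr3 at -0.31 (adjusted p = 0.0142) were the other falls; with total counts their adjusted p was 0.0526 and 0.177, and that of Heatr3 was 0.0820 and 0.0546 without wild-type replicate 1 and 3.

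**Figure D4:**
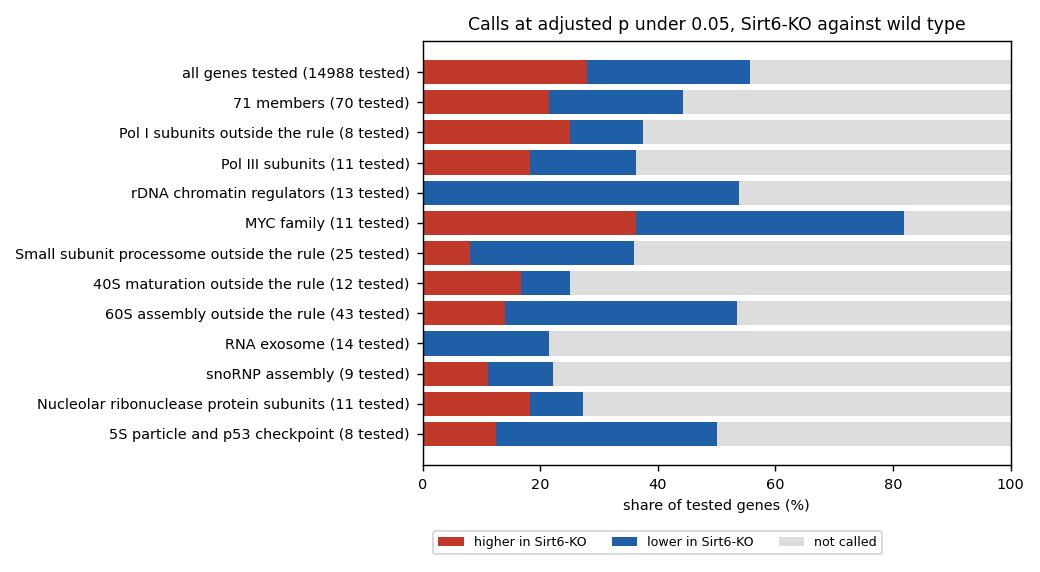
Share of tested genes called higher (red), lower (blue) or not called (grey) in Sirt6-KO cells, for all genes, the 71 members and 11 companion lists with the number tested in brackets. The members' bar has red and blue parts of nearly equal length, and the lists of rDNA chromatin and of the RNA exosome have no red part.

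RefSeq promoters, 250 bases before to 50 after a start on GRCm38.p6, matched 56 of the 71 members, and 5 short motifs were searched on both strands. They were chosen with results known, and a match describes letters only. The letters CCGGAAG, bound by ETS factors, were in 21 of 56 members (37.5%), beside 9.93% of 27025 genes in the table. By call, they were in 6 of 9 matched genes that were higher, 1 of 13 that were lower and 13 of 33 that were not called; the remaining match was Taf1a. CACGTG, the E-box of MYC and USF proteins, was in 10 members (17.9%, beside 8.09% of genes). It was in 1 of 9 higher, 4 of 13 lower and 5 of 33 genes not called. GGGCGG was in 42 members (75%, beside 38.2%), CCAAT in 21 (37.5%, beside 41.1%) and TATAAA in 5 (8.93%, beside 15.7%). By call, GGGCGG was in 6 of 9 higher, 10 of 13 lower and 25 of 33 genes not called. For CCAAT these were 4 of 9, 8 of 13 and 8 of 33, and for TATAAA 1, 1 and 3. Taf1a, not tested, is outside these splits. The genes in the table were not limited to the 14988 that were tested, whereas 70 of the 71 members were tested. The shares are thus of unlike sets, and no test was made of them.

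All ETS matches of called members are shown, for comparison of the genes that were higher with the one that was lower; capitals mark CCGGAAG or its reverse complement CTTCCGG, and each line is read 5′ to 3′ on the strand of its gene.
Ebna1bp2: gcaacgagaaaaCCGGAAGtgcggctatga
Ebna1bp2: gcggctatgaacCCGGAAGcggaagtccct
Mphosph10: tttggcgtactgCTTCCGGccggccggccg
Noc3l: ggctgaaagcgtCTTCCGGtttgggaaagg
Polr1e: cctagaatgtcaCTTCCGGtttttgagtcc
Taf1b: tccccgtctctcCCGGAAGcggcgcttgct
Taf1c: ttctcgggcgaaCTTCCGGcctgatccgga
Wdr3: cttccaatcggaCCGGAAGtggcgggtctc
They lie on GRCm38.p6 at chr4:118620784-118620813 and chr4:118620804-118620833 (plus strand, both Ebna1bp2, with overlapping windows), chr7:64392231-64392260 (minus strand, Mphosph10), chr19:38819195-38819224 (minus strand, Noc3l), chr4:45018622-45018651 (plus strand, Polr1e), chr12:24498570-24498599 (plus strand, Taf1b), chr8:119605216-119605245 (minus strand, Taf1c) and chr3:100162383-100162412 (minus strand, Wdr3). Of these, only Taf1c was lower, so the SL1 genes Taf1b and Taf1c carried the same letters and had opposite signs. None of these 7 genes had CACGTG in the promoter window searched.

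The E-box matches of called members are shown for the same comparison, with CACGTG, which reads alike on both strands, in capitals.
Imp4: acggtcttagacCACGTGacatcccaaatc
Pes1: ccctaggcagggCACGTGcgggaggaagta
Utp14b: cgcgggcgcgggCACGTGggtggggtcgtc
Utp20: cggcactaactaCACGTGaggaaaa
Wdr43: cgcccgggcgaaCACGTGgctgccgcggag
They lie at chr1:34439696-34439725 (plus strand, Imp4), chr11:3963965-3963994 (plus strand, Pes1), chr1:78658365-78658394 (plus strand, Utp14b), chr10:88826765-88826789 (minus strand, Utp20) and chr17:71616220-71616249 (plus strand, Wdr43). Pes1 was higher and the other 4 were lower. Ncl, with the largest fall, was not among them.

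The authors' deposited table listed 70 members, with 14 higher and 16 lower at an adjusted p under 0.05 in that table. Of the 31 members called here, 30 were called in the authors' deposited table with the same sign and 0 with the opposite sign.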

How the data were processed

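The authors' deposited count table holds raw read counts for each gene symbol, with no normalization. TopHat2 2.0.10, HTSeq 0.6.1, DESeq2 and mm9 are named in the submitters' processing notes, without roles. The annotation and whether counting used strand are not given in the sources here, so reads of overlapping or near-identical genes may be shared. A second deposited table holds the authors' comparison of knockout with wild type; per the file headers its columns are a mean signal (scaled counts), log2 differences and their errors, Wald statistics (a score), and raw and adjusted p-values, and it is quoted only where it is named.

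Groups, replicate numbers and columns came from sample titles. Counts were tested with edgeR 4.0.16 in R 4.3.3 (TMM, default filterByExpr, a two-sided glmQLFTest after glmQLFit, group means only) over 14988 genes, with Benjamini-Hochberg adjustment at 0.05; members were read from that fit. SE is the size of the log2 fold change divided by the square root of F. Log2 CPM used a prior count of 2. The members and lists were chosen with earlier results of these data known, so no list was tested. Named genes were all members of the small roles (Pol I, initiation, structure, snoRNP core), up to 4 called rises and 6 called falls of each other role, up to 3 called genes per direction of each companion list by adjusted p, and Sirt6, Myc, Mycn, Rn45s, Rmrp and Rpph1; others are said to be chosen later, and marker lists are given as sums. The promoter lines show each called member with a match, outside that rule.

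Coding lengths came from GENCODE M21 by symbol, with a value for 93.1% of tested genes. All 15 pairs of libraries differed by more than counting noise (lowest chi-square over its degrees of freedom, 3.8). Alternatives were other library scalings, other filters, DESeq2 1.42.0, limma-voom (limma 3.58.1), stricter thresholds, a replicate block and leaving out each library; removing the length and GC trend with loess (span 0.5) was added later. The fit was also run on simulated counts drawn at a common dispersion, with no trend along coding length. Libraries here did differ along coding length, so that run cannot show how well these calls hold. Depth was 20107037 to 29267115 counts per library, and n = 3 limits the precision. Floors cover counting error only.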

Additional observations from a re-analysis of the deposited data

How the results depend on the processing

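Of the 31 member calls, 16 kept their direction and passed in all 15 fits at the 0.05 threshold: Ebna1bp2, Nol3, Pes1, Polr1e, Taf1b and Wdr36 higher (6), and Imp4, Ncl, Nol6, Nop58, Rrp1b, Rrs1, Taf1c, Tcof1, Utp14b and Utp20 lower (10). Nol4 fell below the filter at a mean of 1 CPM. With total counts, 20 members were higher and 10 lower, against 15 and 16, with a member median of 0.11 beside 0.13 over all genes; companion genes were then 41 higher and 30 lower, against 22 and 49. With the length and GC trend removed, 41 companion genes were higher and 65 lower. At an adjusted p under 0.01, 7 members were higher, and companion genes were 12 higher and 31 lower. At a log2 fold change of at least 1, 2 members were higher and 1 lower, companion genes were 3 higher and 6 lower, and all genes were 1889 higher and 1349 lower. Leaving out each library in turn gave 7 to 19 members higher and 13 to 20 lower, 12 to 48 companion genes higher and 33 to 63 lower, and a member median of -0.11 (without Sirt6-KO replicate 3) to 0.069 (without Sirt6-KO replicate 1); members higher were 8, 7, 7 and 8 without Sirt6-KO replicate 2 and wild-type replicates 1, 2 and 3. The causes were not tested. No direction of a called member reversed.

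Replicate numbers were not taken as pairs: deviations of same-numbered libraries correlated at 0.208, -0.025 and 0.201. Those of Sirt6-KO replicate 1 and wild-type replicate 3 correlated at -0.216, and those of Sirt6-KO replicate 3 and wild-type replicate 1 at -0.207. Replicates 1 and 3 thus tended to differ alike in both groups, and the cause was not tested. With a replicate block, 17 members were higher and 17 lower, all 31 calls were kept, and Imp3, Nol7 and Taf1d were added.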
